A study of Mus musculus with 2 samples.

Results

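The G1 cyclins, the kinases they switch on and the inhibitors of those kinases were read in neutrophils sorted from mouse bone marrow. The members are 10 genes chosen by name, of 18193 genes that had a probe set of their own on the array: the D cyclin genes Ccnd1, Ccnd2 and Ccnd3, the E cyclin genes Ccne1 and Ccne2, the kinase genes Cdk2, Cdk4 and Cdk6, and the inhibitor genes Cdkn1b and Cdkn2d. All 10 were measured, by 27 probe sets, and no probe set shared with another gene named any of them. The cells came from C57BL/6 mice, an inbred laboratory strain, with no treatment or transgene given in the labels. Live cells (negative for the dye DAPI) with high Gr-1 and no CD48 on their surface were sorted in independent experiments, and 200 ng of RNA from each of 2 samples (replicates 1 and 2 by their titles) was used for 1 array. The study holds 1 group and no comparison between conditions. How many mice stand behind each sample, and their age, is not stated in the labels.

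A cell leaves G1 and copies its DNA when cyclin-dependent kinases phosphorylate the retinoblastoma protein and its relatives, which frees E2F transcription factors. D cyclins activate Cdk4 and Cdk6, and E cyclins activate Cdk2. Proteins of the INK4 family, to which the product of Cdkn2d belongs, bind Cdk4 and Cdk6, while p27, the product of Cdkn1b, binds cyclin-kinase complexes more widely. Neutrophil precursors divide in the marrow and stop dividing as they mature, and p27 and the INK4 proteins are known for their part in that exit.

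The RefSeq promoter table (GRCm38.p6) matched 7 of the 10 genes with 8 windows, and Ccnd1, Ccnd2 and Ccne2 had no entry. The 250 bases before the annotated start were searched on both strands for 4 words of the E2F binding site (TTTGGCGC, TTTCCCGC, TTTCGCGC and TTTGCCGC), for the cell-cycle homology word TTTGAA and for the E-box CACGTG, which is bound by Myc with Max. The 3 kinase windows are shown because they held all of the matches, and those of the inhibitors Cdkn1b and Cdkn2d because their signals were high and no word matched. Letters run 5′ to 3′ on the strand of the gene, and capitals mark a matched word. The windows are chr10:127063285-127063534 (plus strand) for Cdk4, chr10:128705052-128705301 (minus strand) for Cdk2, chr5:3343643-3343892 (plus strand) for Cdk6, chr6:134920151-134920400 (plus strand) for Cdkn1b and chr9:21291210-21291459 (minus strand) for Cdkn2d.
Cdk4: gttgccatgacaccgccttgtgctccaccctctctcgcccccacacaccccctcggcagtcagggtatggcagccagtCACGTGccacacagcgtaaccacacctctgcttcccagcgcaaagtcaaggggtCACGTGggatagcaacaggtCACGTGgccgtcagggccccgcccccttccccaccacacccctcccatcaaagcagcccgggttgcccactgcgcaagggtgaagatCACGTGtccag
Cdk2: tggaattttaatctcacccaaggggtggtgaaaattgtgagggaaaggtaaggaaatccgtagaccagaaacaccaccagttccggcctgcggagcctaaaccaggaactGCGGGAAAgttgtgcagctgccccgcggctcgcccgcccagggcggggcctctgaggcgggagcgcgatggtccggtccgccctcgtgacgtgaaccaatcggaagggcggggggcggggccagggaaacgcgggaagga
Cdk6: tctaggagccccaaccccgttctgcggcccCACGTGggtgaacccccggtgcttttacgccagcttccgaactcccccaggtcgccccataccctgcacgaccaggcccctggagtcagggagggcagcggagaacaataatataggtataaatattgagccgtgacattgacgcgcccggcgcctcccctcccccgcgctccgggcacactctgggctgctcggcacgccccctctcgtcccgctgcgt
Cdkn1b: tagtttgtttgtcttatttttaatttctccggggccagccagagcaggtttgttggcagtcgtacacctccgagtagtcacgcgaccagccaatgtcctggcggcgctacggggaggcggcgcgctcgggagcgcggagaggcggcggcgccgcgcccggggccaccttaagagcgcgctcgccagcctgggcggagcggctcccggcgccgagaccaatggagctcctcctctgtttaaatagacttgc
Cdkn2d: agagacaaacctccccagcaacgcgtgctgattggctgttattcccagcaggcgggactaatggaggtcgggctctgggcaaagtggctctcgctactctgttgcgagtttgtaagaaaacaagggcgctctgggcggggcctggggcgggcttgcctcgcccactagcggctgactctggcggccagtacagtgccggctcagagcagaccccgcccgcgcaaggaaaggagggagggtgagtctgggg

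The Cdk4 window held 4 E-boxes, which begin 172, 118, 98 and 11 bases before the start and do not overlap. A count of at least 4 was reached by 7 of 32851 windows (0.0213%), from 5 genes, and this count was looked up after the Cdk4 window had been seen. Cdk6 held 1 E-box, 220 bases before its start, and 6.02% of all windows held at least 1. Cdk2 held 1 E2F word, TTTCCCGC on the opposite strand from base 140 to base 133 before the start, and 1.86% of all windows held any of the 4 words. The cell-cycle homology word was in none of the 8 windows and in 16.0% of all windows. The windows of Ccnd3, Ccne1, Cdkn1b and Cdkn2d held none of these letters, which says nothing about other sites for the same factors.

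**Figure D1:**
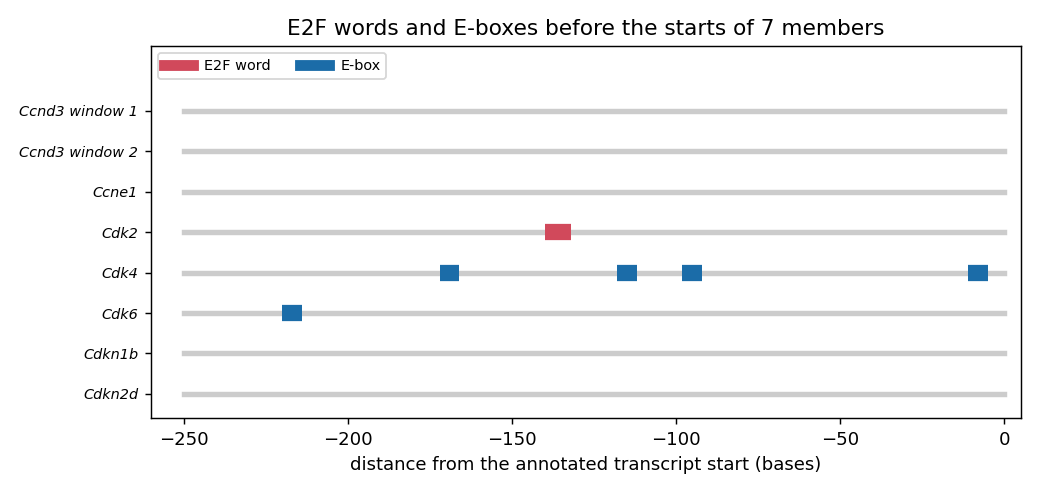
Matched words in the 250 bases before the annotated starts of 7 members, with distance from the start in bases on the x axis and 1 line per window. The 4 E-boxes of Cdk4 and the 1 of Cdk6 are blue, the E2F word of Cdk2 is red, and the lines without a coloured block held no match.

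Each probe set has 1 signal per array on a linear scale, which the authors made with MAS5. A probe set was called above background where its signal passed the 95th percentile of the probe sets of olfactory, taste and related receptor genes on both arrays, a threshold of 108 for replicate 1 and 131 for replicate 2. A gene needed 1 such probe set, and its level is that of the brightest. Probe sets bind their targets with different strength, so no level was set against that of another gene. The trimmed mean signal of the arrays was equal. The ratio of 3′ to 5′ signal of the actin control was 1.10 and 1.25 on replicates 1 and 2, and that of the Gapdh control 0.762 and 0.783. All 10 measured neutrophil markers were above background, Ly6g and Retnlg were not analysed here, and Cd48, the antigen gated against, was below it on both arrays (3.31 and 41.2). Of markers of other marrow cells, 3 of 7 for monocytes, 1 of 8 for B cells, 1 of 6 for T and NK cells, 3 of 7 for erythroid cells and 2 of 8 for stem and progenitor cells were above background. The share of all genes was 40.4%, near that of the monocyte and erythroid markers (42.9% each). With the 99th percentile as threshold the erythroid count was 1 and the B cell count 0, and the other counts stayed.

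Above background on both arrays were 6 of the 10 members, Ccnd2, Ccnd3, Cdk2, Cdk6, Cdkn1b and Cdkn2d, where 40.4% of all 18193 genes were. Ccne1 was above it on replicate 1 alone, as were 5.61% of all genes, and Ccne2 on replicate 2 alone, as were 3.53%. Ccnd1 and Cdk4 were above it on neither array. Where every probe set of a gene had to pass, 3 of the 10 members did, Ccnd3, Cdkn1b and Cdkn2d, and 22.8% of all genes. Counted by probe set, 10 of 27 (37.0%) passed on both arrays, against 35.5% of all probe sets with 1 gene, so the members' share of probe sets lay near that of the array. Of the other 17, 5 passed on replicate 1 alone, 1 on replicate 2 alone and 11 on neither. A low level in sorted cells cannot tell fewer cells with the transcript from less of it per cell.

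**Figure D2:**
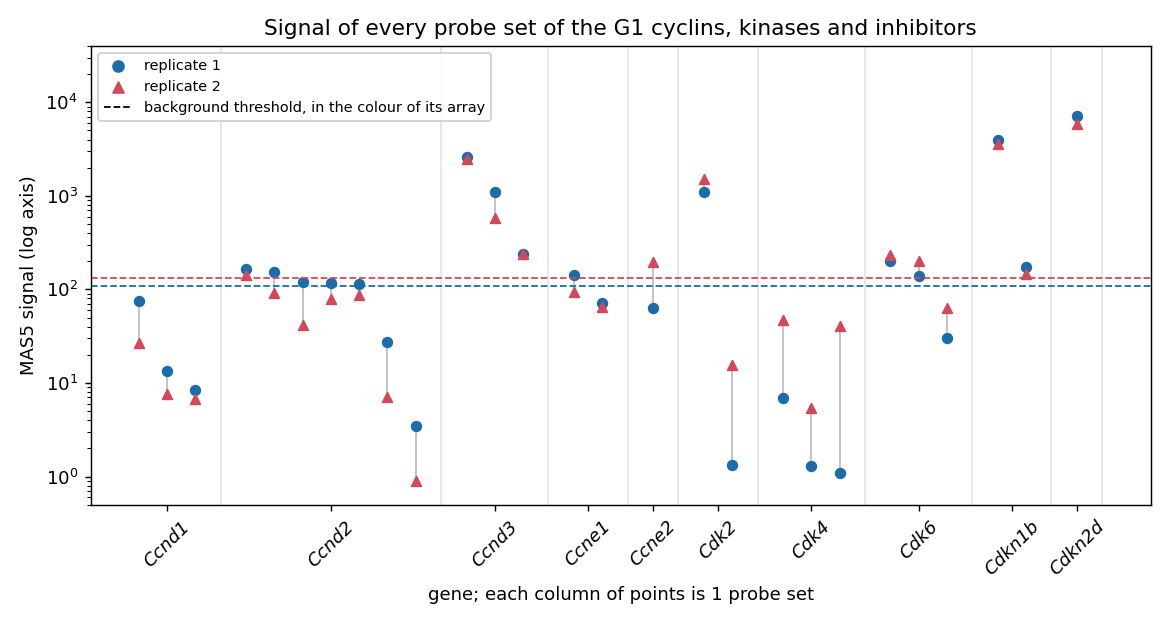
MAS5 signal of the 27 probe sets on a log axis, grouped by gene on the x axis, with replicate 1 as circles, replicate 2 as triangles and a dashed line for each array's background threshold (108 and 131). Ccnd3, Cdkn1b and Cdkn2d have every probe set above the lines on both arrays, and Ccnd1 and Cdk4 have none.

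Among the D cyclins, which carry growth factor signals to Cdk4 and Cdk6, Ccnd3 was read far above background. Its brightest probe set had signals of 2588 and 2463 on replicates 1 and 2, which is 24.0 and 18.7 times the threshold, or a log2 level of 11.30 ± 0.05 (SD, n = 2). The other 2 probe sets of Ccnd3 had 1104 and 573, and 241 and 236, so all 3 were above background on both arrays. Ccnd2 was read close to the threshold, with 1 of 7 probe sets above it on both arrays at 164 and 141 (1.53 and 1.08 times the threshold). Of its other probe sets, 4 passed on replicate 1 alone, with signals of 113 to 155 there, and 2 passed on neither. The log2 level of Ccnd2 was 7.25 ± 0.15 (SD, n = 2). Ccnd1 had 75.9 and 27 on its brightest probe set, and its others lay between 6.78 and 13.4, all below the threshold. The 3 D cyclin genes therefore differed in their calls, which were clear for Ccnd3, near the threshold for Ccnd2 and absent for Ccnd1.

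The E cyclins, which drive Cdk2 at the entry into S phase, were near the threshold and on opposite sides of it. Ccne1 had 143 and 93.7 on its brighter probe set and 72.2 and 64.9 on the other, so it passed on replicate 1 alone. Ccne2, read by 1 probe set, had 63.3 and 198, and passed on replicate 2 alone. With the dim array set to its threshold, Ccne2 was 1.84-fold higher on replicate 2 and Ccne1 1.09-fold higher on replicate 1. Both values rest on the deposited scaling and on the choice of threshold, so neither is a firm lower bound. At the 99th percentile of the background the thresholds were 136 and 216 on replicates 1 and 2. Ccne2 (198) then did not pass on replicate 2, while Ccne1 (143) still passed on replicate 1.

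Of the kinases, Cdk2 was clearly above background and Cdk6 modestly so. Cdk2 had signals of 1094 and 1528, 10.2 and 11.6 times the threshold, with a log2 level of 10.34 ± 0.34 (SD, n = 2). Its second probe set, with no accession in the annotation, had 1.32 and 15.6 and passed on neither array. Cdk6 had 202 and 234 on its brightest probe set (1.87 and 1.78 times the threshold), 140 and 202 on the next and 30.3 and 63.1 on the last, with a log2 level of 7.76 ± 0.15 (SD, n = 2). Cdk4, the kinase gene whose window held 4 E-boxes, was below background on all 3 of its probe sets, with 6.86 and 47.7, 1.30 and 5.45, and 1.08 and 40.9. Its highest signal was 0.363 times the threshold of its array.

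Both inhibitors were above background on every probe set. Cdkn2d, read by 1 probe set, had 7087 and 5871, 65.8 and 44.7 times the threshold, and a log2 level of 12.66 ± 0.19 (SD, n = 2). Cdkn1b had 3936 and 3572 on its brighter probe set, 36.5 and 27.2 times the threshold, and a log2 level of 11.87 ± 0.10 (SD, n = 2). Its other probe set, annotated to the RefSeq mRNA, had 173 and 145 and lay close above the threshold. The probe sets of Cdkn1b thus differed 22.8-fold on replicate 1 and 24.5-fold on replicate 2.

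Between the arrays the 6 members above background on both differed by less than 2-fold as deposited. The log2 difference, replicate 2 minus replicate 1, was -0.07 for Ccnd3, -0.14 for Cdkn1b, -0.22 for Ccnd2, -0.27 for Cdkn2d, 0.21 for Cdk6 and 0.48 for Cdk2. None of the 6 differed over 2-fold in either direction, where 5.4% of the 7353 genes above background did. The kinases Cdk2 and Cdk6 were higher on replicate 2, and the D cyclins and inhibitors were lower. Of all genes above background 56.3% were higher on replicate 2, a share that became 44.5% with median scaling and 8.08% with scaling to the hybridisation controls. The members' median difference was -0.11, and that of all genes was 0.07, with 90% of genes between -0.72 and 0.89. With 1 array per experiment this difference is itself the spread between replicates, so it has no test.

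**Figure D3:**
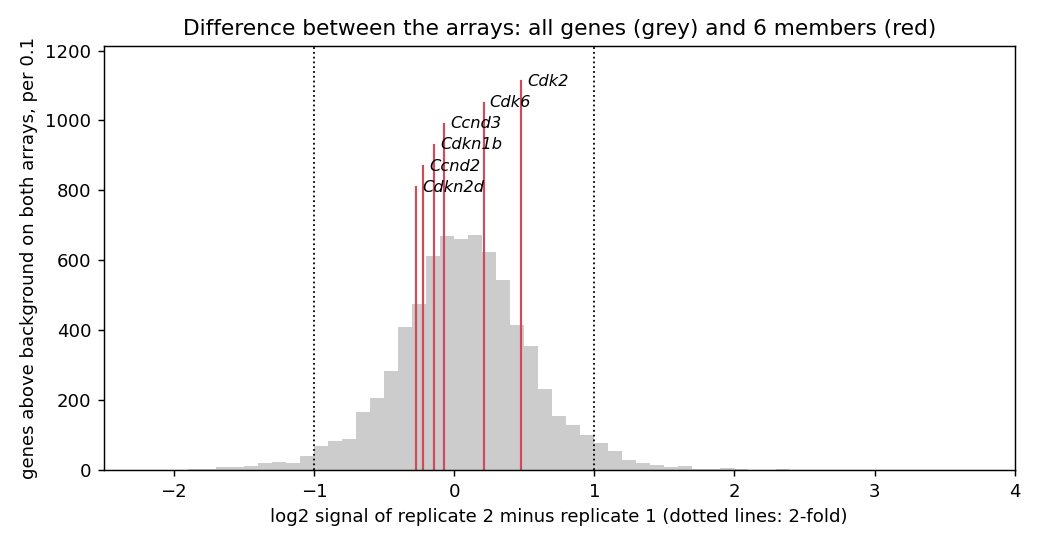
Log2 signal of replicate 2 minus replicate 1 on the x axis for the 7353 genes above background on both arrays (grey, genes per bin of 0.1), with the 6 members as red lines. The members lie between -0.27 (Cdkn2d) and 0.48 (Cdk2), all inside the dotted lines at a 2-fold difference.

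The sign and size of these differences depended on how the arrays were scaled. The hybridisation controls, spiked into each hybridisation, were 0.73 higher on replicate 2 on the log2 scale, and scaling to them moved the median of all genes to -0.66. Under that scaling all 6 members were lower on replicate 2, with Cdk2 at -0.24 and Cdk6 at -0.52, and under quantile normalization Ccnd3 stood at 0.01. The other 4 stood at -0.80 (Ccnd3), -0.87 (Cdkn1b), -0.94 (Ccnd2) and -1.0 (Cdkn2d) with the hybridisation controls, against that median of -0.66. As deposited, Cdk2 and Cdk6 were above the median of all genes and the other 4 below it, and quantile normalization left each on its side. Scaling by 1 factor per array cannot move a gene across that median.

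**Figure D4:**
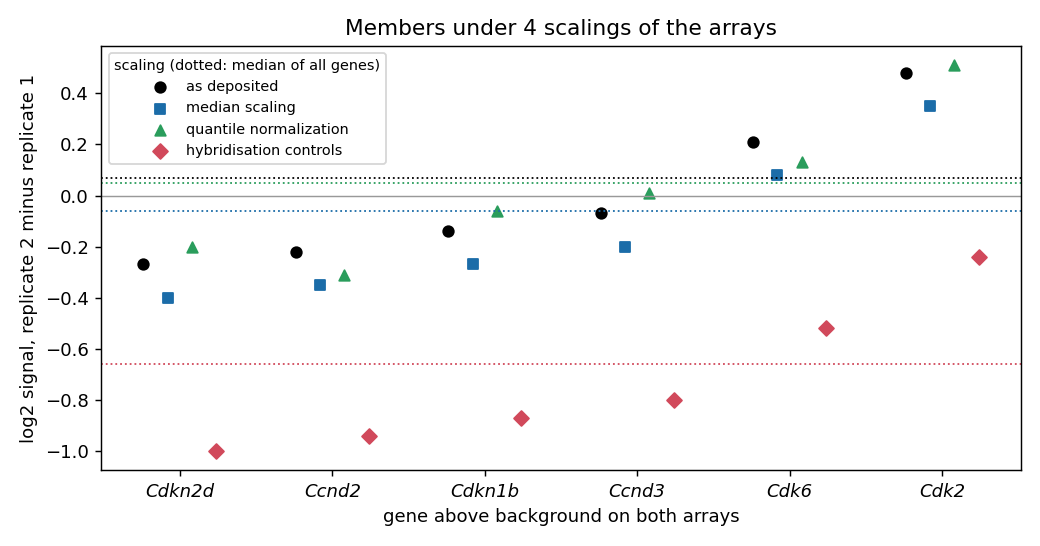
Log2 signal of replicate 2 minus replicate 1 for the 6 members above background (x axis) under 4 scalings of the arrays, with a dotted line at the median of all genes under each. Under the hybridisation controls every member is below 0, from -0.24 (Cdk2) to -1.0 (Cdkn2d); median and hybridisation control scaling shift members and dotted line together.

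Probe sets of the same gene leaned the same way. In all 8 members with at least 2 probe sets, every probe set was on 1 side: lower on replicate 2 in 3 of 3 for Ccnd1, 7 of 7 for Ccnd2, 3 of 3 for Ccnd3, 2 of 2 for Ccne1 and 2 of 2 for Cdkn1b, and higher in 2 of 2 for Cdk2, 3 of 3 for Cdk4 and 3 of 3 for Cdk6. Of all 9010 genes with at least 2 probe sets, 43.3% had every probe set on 1 side. By number of probe sets the share was 56.7% for genes with 2, 36.1% for genes with 3 and 12.4% for genes with 7. Scalings tried after these values were seen gave 8 of 8 with median scaling, 7 with quantile normalization (without Ccnd3) and 6 with the hybridisation controls (without Cdk2 and Cdk6), where 42.9%, 42.2% and 59.9% of all genes were on 1 side. The counts include probe sets below background. Probe sets of a gene share the RNA sample and the array, so they are not replicates of the difference.

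Other genes were taken from lists written around the G1 step, though some of the listed genes act later in the cell cycle. In these lists 27 of 45 measured genes (60.0%) were above background, where 40.4% of all genes were. Where every probe set of a gene had to pass, 22.8% of all genes were above background. By list this held for 1 of the 3 pocket protein, 2 of the 10 E2F and DP and 1 of the 8 kinase-modifying genes. It also held for 2 of the 9 Myc and FoxO genes, 7 of the 9 protein turnover genes and 2 of the 6 genes listed as other inhibitors. Genes beyond the first 4 of a list were chosen after their values were seen, apart from those whose call went against most of their list. All 3 pocket protein genes, whose products hold E2F factors in check, were above background: Rb1 at 873 and 1174, Rbl1 at 198 and 441, and Rbl2 at 522 and 408. Of the E2F and DP genes 4 of 10 were, among them E2f2 (2362 and 2081) and E2f3 (338 and 385), while E2f1 was on neither array (66.5 and 108) and E2f4 on replicate 1 alone (120 and 102). Of the 6 genes listed as other inhibitors 2 were above background (1 at the 99th percentile), Cdkn2c at 142 and 505 and Cdkn3 at 122 and 654. Despite its symbol, Cdkn3 encodes a phosphatase that acts on the kinases. Cdkn2c is of the INK4 family, as Cdkn2d is. Of that family too, Cdkn2a (11.8 on both) and Cdkn2b (8.12 and 55.0) were below background, as was Cdkn1c (2.28 and 17.2). Cdkn1a passed on replicate 1 alone (172 and 127).

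Genes for the turnover of these proteins were above background in 9 of 9, and in 5 of 9 at the 99th percentile of the background, which 32.7% of all genes passed. They include Skp2 (160 and 139), whose product selects p27 for degradation, Cks1b (117 and 1470), its cofactor, and the scaffold genes Skp1 (1623 and 1871) and Cul1 (586 and 621). Cks1b stood apart in this list with a log2 difference of 3.66, and the other 8 lay between -0.67 and 0.20. Of the genes that add or remove activating and inhibiting phosphates on the kinases, 4 of 8 were above background, among them Cdk7 (421 and 445), its cyclin gene Ccnh (274 and 681) and the phosphatase gene Cdc25a (377 and 801), while Mnat1 was on neither array (71.9 and 125). In the Myc and FoxO list 5 of 9 were above background. Myc itself was on neither array (1.21 and 33.2), nor were Mycn (62.8 and 78.7) and Mycl (69.9 and 91.3), whereas their partner Max had 4261 and 3037 and Mxd1, which pairs with Max in place of Myc, had 8826 and 6713. Foxo3, a factor known to act on Cdkn1b, had 1582 and 1138.

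As deposited, all 7 division markers that passed on both arrays were brighter on replicate 2, 6 of them over 2-fold. Of all genes above background 56.3% were higher there, and 5.4% differed over 2-fold in either direction. The median log2 difference of the 7 was 2.89, with a range from 0.47 (Pcna) to 3.62. Of the rest, 4 passed on replicate 2 alone and 3 on neither, among them Mcm3, which was lower on replicate 2 (72.8 and 11.9). The signals of all 14 measured summed to 2092 and 10224. Of the S and M phase cyclins and Cdk1, 2 of 5 measured (40.0%) were above background on both arrays, where 40.4% of all genes were. The 2 were Ccna2 (223 and 682) and Ccnb2 (126 and 659), and the count was 1 at the 99th percentile of the background. Ccnf and Cdk1 passed on replicate 2 alone. The stem and progenitor markers summed to 779 and 1784, and the rise lay mostly in Kit (244 and 547) and Myb (254 and 945), the 2 of 8 above background. Mpo passed on replicate 2 alone (98.2 and 187), and 5 passed on neither array. Of those 5, Flt3 (70.8 and 27.1), Elane (57.7 and 39.2), Prtn3 and Ctsg were lower on replicate 2, and Cd34 (3.01 and 8.29) was higher. The monocyte markers summed to 5775 and 2683, of which Csf1r had 5020 and 1928, and the other 6 summed to 754 on replicate 1 and 755 on replicate 2. The sums of B cell, T and NK cell and erythroid markers were 602 and 813, 537 and 593, and 1018 and 924. The 10 neutrophil markers summed to 240677 and 345346. As deposited 8 were higher on replicate 2, by 0.19 to 0.82 on the log2 scale. The hybridisation controls were 0.73 higher on that array, so this count depends on the scaling. Cxcr2 (7212 and 3224) and Csf3r (7951 and 4670) were lower on replicate 2. No marker was listed at 0. With no filter on background, 4 of the 10 members were higher on replicate 2, Cdk2, Cdk6, Ccne2 and Cdk4, where 55.1% of all genes were. Of these, Ccne2 passed the background on replicate 2 alone and Cdk4 on neither array. With scaling to the hybridisation controls Cdk2 (-0.24) and Cdk6 (-0.52) were lower on replicate 2 instead. The part of dividing cells in the members' differences was not tested.

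**Figure D5:**
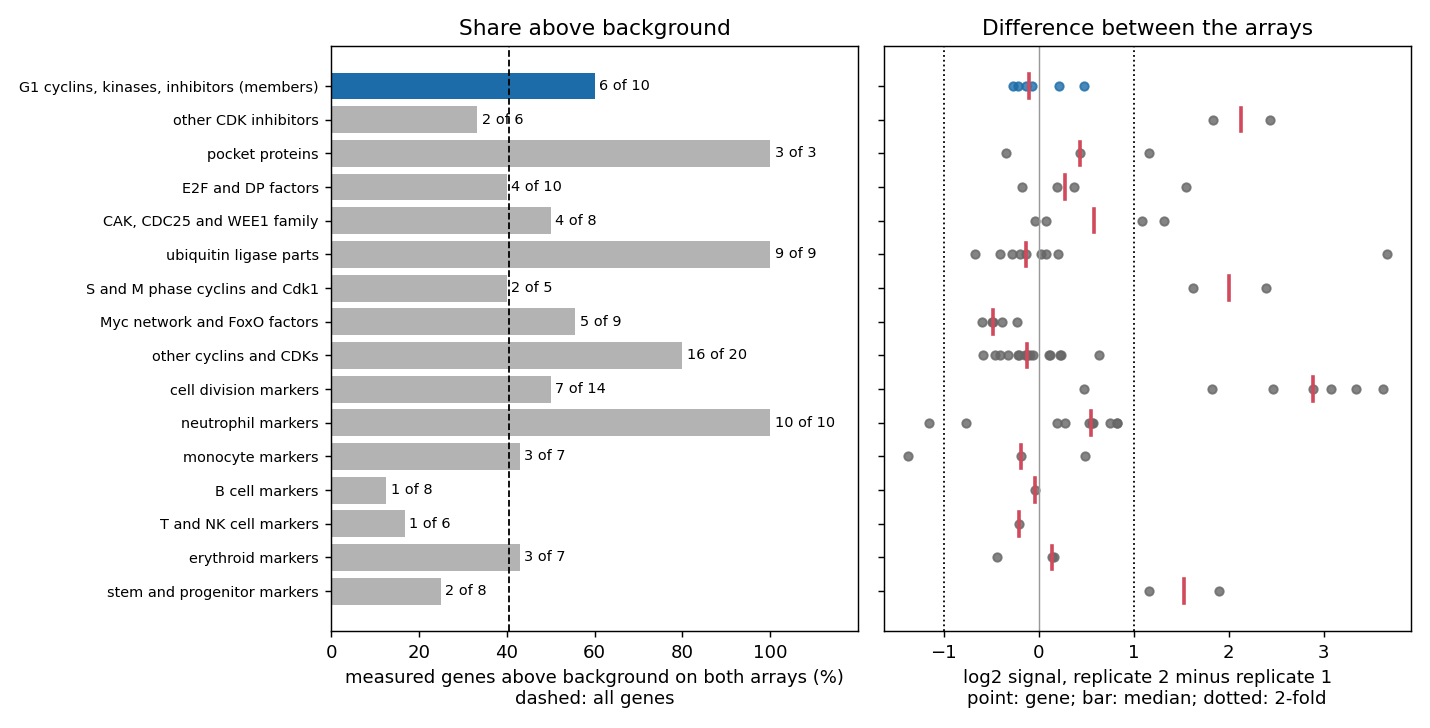
Left, the percent of measured genes above background on both arrays in each list, with the count beside each bar and a dashed line at 40.4% for all genes. Right, the log2 signal of replicate 2 minus replicate 1 of each gene above background (points) with the list median (red bar); the members stay within a 2-fold difference, and 6 of 7 division markers lie beyond it.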

How the data were processed

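Neutrophils of 1 group were measured on 2 arrays. The deposited values are linear signal intensities of 45101 probe sets. The authors used MAS5 according to the submitters' processing notes (version and settings: not given in the sources used here). Detection calls were not used here. The mean after trimming 2% of probe sets at either end was equal on both arrays, so each had been scaled before deposit.

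Gene names came from GEO's annotation of the platform. After 64 control probe sets were set aside, 34945 had 1 gene. Of these, 34741 had their gene identifier in the NCBI table, and no symbol changed. Mycl1 and Skp1a of the lists were read as Mycl and Skp1. The background came from 87 probe sets of 78 sensory receptor genes, of which 2 passed it on both arrays. Signals were floored at 1 before log2. The procedure was run on simulated data, with most expressed genes drawn far above the threshold and the others from the sensory receptor signals. That run does not test calls near the threshold, such as that of Ccnd2. No p-value was computed, since 1 group leaves nothing to test, and the number of arrays limits the precision. The members and the 16 gene lists were chosen with earlier results of these data known. Named are all members, the first 4 measured genes of each pathway list and up to 4 whose call went against over 75% of it; other named genes were chosen after their values were seen. Alternatives changed the background percentile (90 or 99), the reading of a gene, the probe sets kept, the scaling, the filter, or an offset of 32. A planned protein comparison was not run, since no protein sequences were used here. The work used Python 3.11.15, pandas 2.3.3 and numpy 2.4.6.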

Additional observations from a re-analysis of the deposited data

How the results depend on the processing

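The count of members above background, 6 of 10, was between 5 and 7 under 6 of the 7 alternatives, replicates left out included. Under those 6 the share of all genes was between 32.7% and 46.3%. The count was 3 (Ccnd3, Cdkn1b and Cdkn2d) where every probe set of a gene had to pass, which 22.8% of all genes met. Ccnd2 lost its call at the 99th percentile (thresholds 136 and 216) and where the median probe set decided, and Ccne1 gained one at the 90th (94.3 and 92.3). Members higher on replicate 2 numbered 2 as deposited, 0 with scaling to hybridisation controls and 4 with no filter on background. Members over 2-fold different numbered 0 as deposited, 2 with the mean over probe sets (Ccnd2 at -1.03 and Cdk2 at 2.02, both through probe sets below background) and 3 with no filter on background, which adds genes below it. The sign of a difference turned for Ccnd3 under quantile normalization (0.01) and for Cdk2 (-0.24) and Cdk6 (-0.52) with scaling to hybridisation controls, which lowers every gene by the same amount. Genes over 2-fold higher and lower on replicate 2 numbered 252 and 145 as deposited, 163 and 235 with median scaling and 33 and 1578 with the hybridisation controls. Counts of 16 lists stayed within 1.5 times in 16 lists at the 90th percentile, 11 at the 99th and 8 where every probe set had to pass. No paired analysis was possible because there is 1 group.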

Other observations

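Cyclins and kinases outside the G1 step, many of them acting on transcription, were above background in 16 of 20 genes (80.0%), where 40.4% of all genes were, and in 8 of 20 where every probe set of a gene had to pass, as in 22.8% of all genes. Of the 16, 5 were higher and 11 lower on replicate 2, none over 2-fold, with a median log2 difference of -0.12. The Mediator kinase pair Ccnc (340 and 395) and Cdk8 (285 and 257) and the elongation factor cyclins Ccnt1 (610 and 661) and Ccnt2 (820 and 709) were above background. Ccnk (74.7 and 83.9), Cdk14 and Cdk18 (16.2 and 10.5) were on neither array, and Cdk10 (132 and 85.1) was on replicate 1 alone.

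Of the 15 probe sets of members annotated to a RefSeq mRNA, 4 were above background on both arrays (36.8% of all such probe sets were), of the 9 annotated to another accession 6 were (34.7%), and of the 3 with no accession none was (40.2%). Ccnd1 and Cdk4 hold 6 of the 15, and without these genes 4 of 9 RefSeq probe sets were above background. In Cdk6 and Cdkn1b the RefSeq one was the dimmest (30.3 and 63.1 for Cdk6, 173 and 145 for Cdkn1b), in Ccnd3 it was the brightest (2588 and 2463), and in Ccnd2 RefSeq ones were both the brightest (164 and 141) and the dimmest (3.50 and 0.892). None of the 4 probe sets with names ending in _x_at or _s_at, which can bind several transcripts, was above background on both arrays. They belong to Ccnd2, Ccne1 and Cdk4, which were near or below the threshold. The share of all probe sets with such names is not given here, so the count says nothing about their kind.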
